A study of Saccharomyces cerevisiae with 42 samples.

Results

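The 10 genes described here encode core enzymes of glycolysis in Saccharomyces cerevisiae: PGI1, PFK1, PFK2, FBA1, TPI1, PGK1, GPM1, ENO1, ENO2 and CDC19. They were chosen by name, and they make up 10 of the 7127 annotated genes. All 10 were among the 4789 genes with at least 75 counts in every library, the genes that were tested. The cells were BY4742, a haploid laboratory strain labelled as wild type, for which the methods give the alleles his3Δ1, leu2Δ0, met15Δ0 and ura3Δ0. By the labels and the methods, all cultures were grown at 30 °C in YPD, a rich medium with glucose. They were diluted to a low density and grown for 2 h before the first sample, which is the 0 h time point, and sampled again after a further 2, 4 and 6 h. Stranded RNA-seq libraries of polyA RNA were made from 24 cultures labelled 0 h and from 6 cultures labelled for each of 2, 4 and 6 h, 42 libraries in all.

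Glycolysis splits each glucose molecule into pyruvate and yields ATP. Budding yeast on glucose sends most of this pyruvate on to ethanol even when oxygen is present, and its glycolytic mRNAs are among the most abundant of the cell. PGI1 encodes phosphoglucose isomerase, PFK1 and PFK2 the alpha and beta subunits of phosphofructokinase, FBA1 aldolase and TPI1 triose phosphate isomerase, which together turn glucose 6-phosphate into triose phosphates. PGK1 encodes phosphoglycerate kinase, GPM1 phosphoglycerate mutase, ENO1 and ENO2 the enolases and CDC19 the main pyruvate kinase, which carry the triose phosphates on to pyruvate. Of the enolases, ENO2 is known as the form used during growth on glucose, and ENO1 as the form also made when glucose is gone.

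Library totals ranged from 4339150 to 31908031 gene counts with a median of 12150379. The counts of the 10 genes lay between 4827 and 553633 per library, so that counting error was small beside the spread between libraries. Levels are given as CPM, counts scaled to a common library total, after TMM scaling, and they are shares of the polyA RNA of a culture. Less of an mRNA per cell and more of the other mRNAs cannot be told apart. The 42 libraries fell into 2 sets that stand apart in how the CPM of a gene depended on its length. The slope of log2 CPM on log2 gene length was steep (0.38 to 0.62) in 32 libraries and flat (-0.08 to 0.19) in 10. Of the flat ones, 7 belong to the first time point, 1 to 2 h, 0 to 4 h and 2 to 6 h. The alignment names in the file headers carry 30C in 6 of the 24 libraries labelled 0 h. In the other 18 they carry 35C, 10C or Na200. All 24 were used as 0 h, as labelled, and results with the 6 alone, or with the length slope taken into account, are given where they change a call.

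The 10 genes together took between 4.48% and 8.63% of all gene counts at 0 h (median 6.07%), between 4.56% and 7.71% at 2 h (median 5.41%), between 4.39% and 6.20% at 4 h (median 5.96%) and between 4.87% and 7.30% at 6 h (median 5.33%). These 4 ranges overlapped. At 0 h their share was 5.66% to 8.63% in the 7 libraries with a flat slope and 4.48% to 6.66% in the 17 with a steep slope.

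Per kilobase of gene, the levels at 0 h spanned a wide range. FBA1 stood at the top with 12201 ± 4323 CPM per kilobase (SD, n = 24), rank 2 among the 4789 tested genes. It was followed by GPM1 at 10797 ± 4440 CPM per kilobase and ENO2 at 9831 ± 3365 CPM per kilobase. CDC19 had 7587 ± 1490.2, PGK1 6776 ± 1655 and TPI1 5582 ± 1137 CPM per kilobase, and these 6 genes held ranks between 2 and 18. ENO1 was far below ENO2 with 1709 ± 666 CPM per kilobase, rank 90. PGI1 had 1330.0 ± 149 CPM per kilobase (rank 122), while PFK1 with 605 ± 97.6 and PFK2 with 608 ± 164 CPM per kilobase held ranks 286 and 285. Neighbours in this order were separated in 23 or 24 of 24 libraries, except GPM1 over ENO2 and ENO1 over PGI1, each in 16 of 24, and PFK1 over PFK2 in 10 of 24, so that the order within those 3 pairs varied between libraries.

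By 6 h the place of ENO2 in this order had changed, while ENO1 stayed between TPI1 and PGI1. At 6 h, ENO2 had 6090 ± 2411 CPM per kilobase (SD, n = 6), below PGK1 at 6610 ± 1665 and beside CDC19 at 6040 ± 1207 CPM per kilobase. ENO1 had 3052 ± 608 CPM per kilobase and was above PGI1 (1096 ± 80.1) in 6 of 6 libraries. FBA1, GPM1, PFK1 and PFK2 kept the ends of the order, with 11065 ± 4213, 10556 ± 4936, 463 ± 83.2 and 491 ± 127 CPM per kilobase. Per-kilobase levels carry the length slope of a library. The order was read within libraries, which does not remove this slope between genes of different length.

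**Figure D1:**
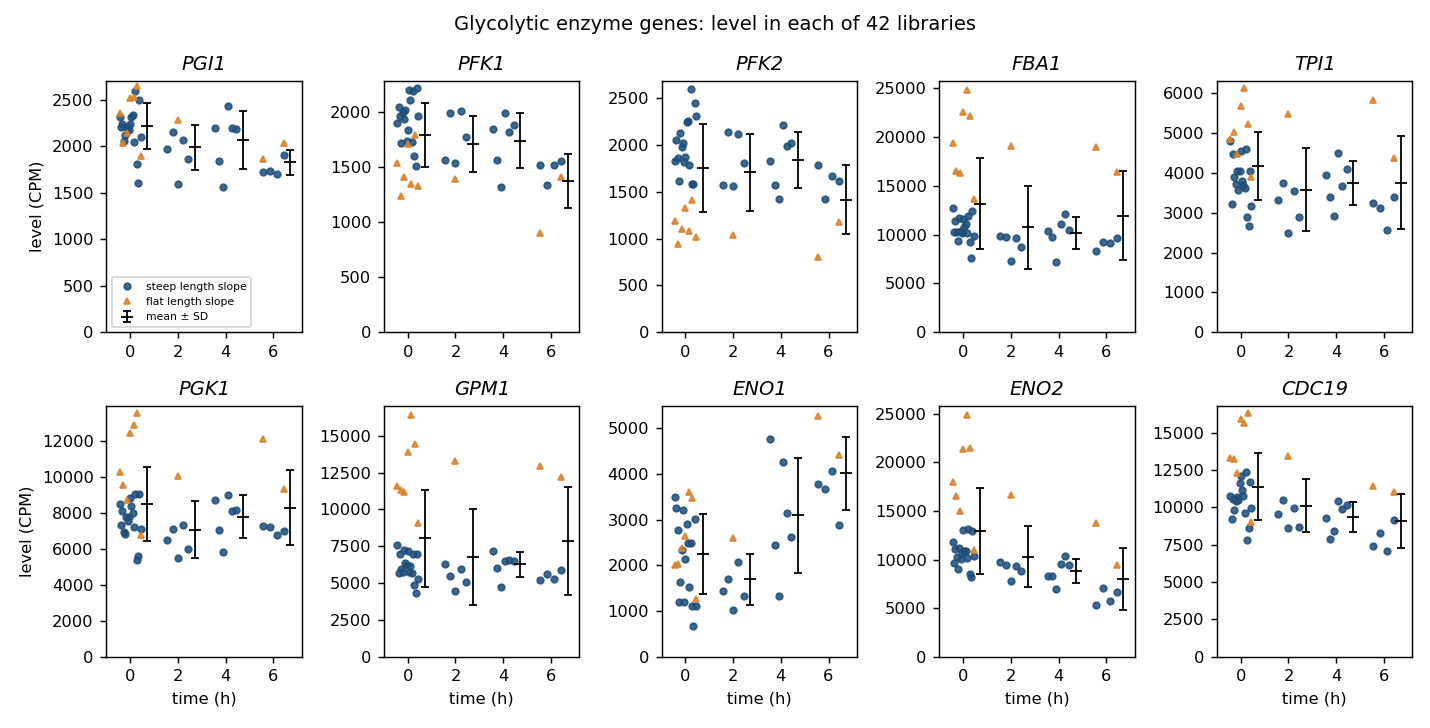
Levels of the 10 genes in each of the 42 libraries (y axis, TMM-scaled CPM, starting at 0) against time (x axis, h); circles are libraries with a steep length slope, triangles those with a flat one, and the bar is the mean ± SD. ENO1 has its highest mean at 6 h and ENO2 its lowest, while for FBA1 and GPM1 the triangles lie above all circles at each time that has both.

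The length-slope sets weighed differently on each gene. Among the 24 libraries at 0 h, the mean log2 CPM of the flat set minus that of the steep set was 1.01 for GPM1 (744 bp), 0.85 for FBA1 (1080 bp) and 0.74 for ENO2 (1314 bp). It was -0.79 for PFK2 (2880 bp) and -0.38 for PFK1 (2964 bp), and only 0.08 for PGI1 (1665 bp). The ranges of the sets did not overlap for GPM1, FBA1 and PFK2. ENO1, which has the same length as ENO2, differed by 0.28. TPI1 (747 bp), close to GPM1 in length, differed by 0.41, PGK1 (1251 bp) by 0.46 and CDC19 (1503 bp) by 0.37.

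Changes against 0 h were taken from edgeR's quasi-likelihood test over all 42 libraries, with p-values adjusted by Benjamini-Hochberg over the 4789 genes, and a gene was called at an adjusted p under 0.05. At 6 h, 1 of the 10 genes, ENO1, was higher than at 0 h and 4 were lower, ENO2, PFK1, PGI1 and CDC19. Of all tested genes 24.9% were higher and 19.6% lower, 44.6% in all, so that the share of the 10 genes called was close to that of any gene. The median log2 change of the 10 genes was -0.21, beside 0.02 over all tested genes. Scaling by library totals in place of TMM gave 1 higher and 3 lower (30% and 13.4% of all genes). In no member were the ranges at 6 h and 0 h apart, which held for 2.67% of all tested genes on the higher side and 1.94% on the lower side. With the length-slope set as a covariate, 1 was higher and 5 were lower (32.7% and 30.3% of all genes), and in the 32 libraries of the steep set 1 was higher and 6 were lower (31.2% and 29.4%). With only the 6 libraries at 0 h whose alignment names hold 30C, 0 were higher and 2 lower (14.8% and 11.5%). With the replicate numbers of the labels as a block, 1 was higher and 1 lower (15.8% and 11.0%).

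ENO1 (YGR254W, chromosome VII, 1000927 to 1002240, plus strand) rose. It had between 2876 and 5259.6 CPM at 6 h with a median of 3923, against 675 to 3601 CPM at 0 h with a median of 2348. In 5 of the 6 libraries at 6 h it was above all 24 at 0 h, and 1 lay inside their range. The log2 change was 0.84 (SE 0.24, edgeR adjusted p = 0.00397). It was 0.81 with the length-slope set as a covariate (edgeR adjusted p = 0.00218) and 0.74 in the steep libraries alone (edgeR adjusted p = 0.0276). With only the 6 libraries at 0 h whose alignment names hold 30C it was 0.86 and no longer called (edgeR adjusted p = 0.0536).

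ENO2 (YHR174W, chromosome VIII, 451327 to 452640, plus strand) fell. At 6 h it had 5339.8 to 13767 CPM with a median of 6832, against 8245 to 24829 CPM with a median of 11065 at 0 h. The 4 steep libraries at 6 h, with at most 7031 CPM, were below all 24 at 0 h, and the other 2, with a flat slope, had 9459 and 13767 CPM. The log2 change was -0.69 (SE 0.20, edgeR adjusted p = 0.00508), -0.75 with the set as a covariate (edgeR adjusted p = 2.52e-07) and -0.75 with the 6 libraries at 0 h (edgeR adjusted p = 0.0293).

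Both enolase genes have a coding sequence of 1314 bases without an intron, and these differ at 68 bases (94.8% identity). Reads that mapped to several places were not counted, and the longest run the genes share without a difference is 112 bases, so part of the reads of either gene may be lost or, where a read carries errors, misplaced. The stretch from coding base 340 to 399, which has 13 differences, is printed to show how reads of the enolase genes can be told apart; it is from the R64 reference, plus strand, with the differing bases in capitals. The stretch lies on chromosome VII from 1001266 to 1001325 for ENO1 and on chromosome VIII from 451666 to 451725 for ENO2.
ENO1: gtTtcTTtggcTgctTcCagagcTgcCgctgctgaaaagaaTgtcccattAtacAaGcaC
ENO2: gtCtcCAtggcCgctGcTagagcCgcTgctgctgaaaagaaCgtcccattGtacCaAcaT

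The balance of the enolases was measured within each library as the ratio of ENO2 to ENO1 counts per base, which needs no scaling between libraries. At 0 h the ratio lay between 2.98 and 12.2 with a median of 6.25, and at 2 h between 4.51 and 7.64 with a median of 6.53. At 4 h it lay between 1.75 and 5.25 with a median of 3.35, and at 6 h between 1.41 and 2.62 with a median of 2.03. All 6 libraries at 6 h were below all 24 at 0 h, and at 4 h 2 of 6 were. ENO2 thus stayed above ENO1 in 42 of 42 libraries. The mean log2 ratio at 6 h minus that at 0 h was -1.64, with p = 1.68e-06 in a two-sided exact permutation test, the smallest p that the 593775 splits allow (Benjamini-Hochberg adjusted p = 1.01e-05 over the 6 ratio comparisons made). At 4 h the difference was -0.97 (exact permutation p = 0.000684, adjusted 0.00205), and at 2 h it was 0.04 (exact permutation p = 0.857). With labels exchanged only within the length-slope sets, the difference was -1.66 at 6 h (exact permutation p = 4.64e-06) and -0.83 at 4 h (exact permutation p = 0.00769). Against the 6 libraries at 0 h named 30C it was -1.79 at 6 h (exact permutation p = 0.00216) and -1.11 at 4 h (exact permutation p = 0.00649).

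As a share of the reads of both enolase genes, ENO1 took 7.57% to 25.1% at 0 h (median 13.8%), 11.6% to 18.2% at 2 h (median 13.3%), 16.0% to 36.4% at 4 h (median 23.0%) and 27.6% to 41.4% at 6 h (median 33.1%). The summed level of both was 12013 ± 3840 CPM at 6 h (SD, n = 6) and 15165 ± 4917 CPM at 0 h (SD, n = 24), with overlapping ranges.

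**Figure D2:**
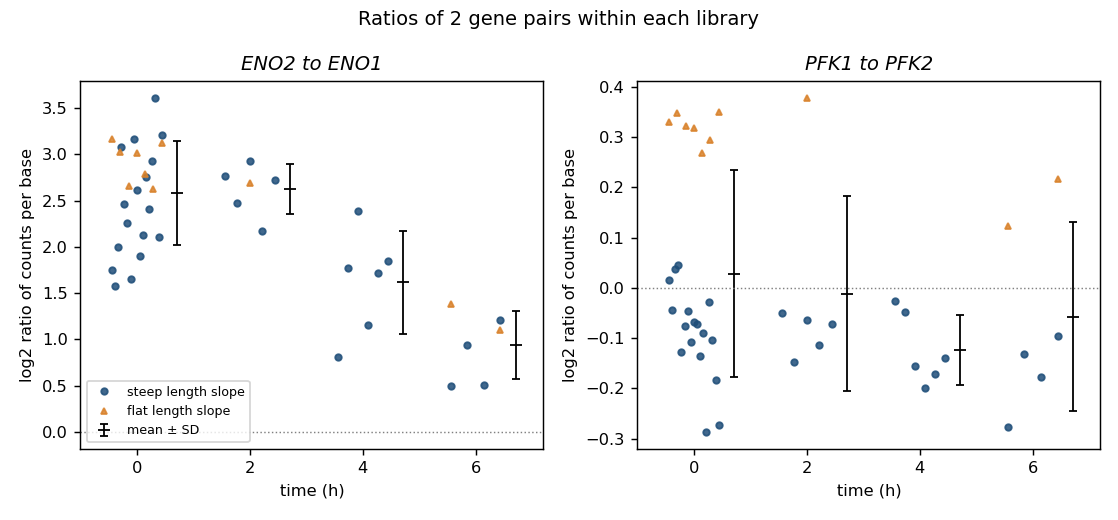
Log2 ratio of counts per base (y axis) for ENO2 to ENO1, left, and PFK1 to PFK2, right, in each library against time (x axis, h); circles have a steep length slope, triangles a flat one, and bars give the mean ± SD. The 6 points for the enolases at 6 h all lie below the 24 points at 0 h, whereas for the phosphofructokinase subunits the circles and triangles separate at each time that has both.

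Phosphofructokinase is the main regulated step of the pathway, and its subunit genes lie on different chromosomes. PFK1 (YGR240C, chromosome VII, 970771 to 973734, minus strand) had 899 to 1559 CPM at 6 h with a median of 1464, against 1238 to 2215 CPM with a median of 1813 at 0 h. The ranges overlapped, with 1 of 6 libraries at 6 h below all at 0 h. The log2 change was -0.38 (SE 0.12, edgeR adjusted p = 0.00624), and with library totals in place of TMM it was -0.28 and not called (edgeR adjusted p = 0.0915). PFK2 (YMR205C, chromosome XIII, 671887 to 674766, minus strand) had 802 to 1786 CPM at 6 h with a median of 1521, against 944 to 2593 CPM with a median of 1822 at 0 h. Its log2 change of -0.31 (SE 0.18) was not called (edgeR adjusted p = 0.155), but with the length-slope set as a covariate it was -0.27 and called (SE 0.10, edgeR adjusted p = 0.0151). PFK2 was also called in the steep libraries alone and with the submitters' culture number as a block.

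The ratio of PFK1 to PFK2 counts per base was near 1 throughout. Its medians over the 4 times, from the first to the last, were 0.97, 0.95, 0.90 and 0.92, and at 0 h it ranged between 0.82 and 1.27. At 0 h it was 1.20 to 1.27 in the 7 flat libraries and 0.82 to 1.03 in the 17 steep ones, without overlap. The pooled log2 difference was -0.09 at 6 h against 0 h (exact permutation p = 0.363, adjusted 0.544), -0.15 at 4 h (exact permutation p = 0.0908, adjusted 0.182) and -0.04 at 2 h (exact permutation p = 0.683, adjusted 0.820). With labels exchanged only within the sets, the difference at 6 h was -0.10 (exact permutation p = 0.00867, adjusted 0.0173). In the steep libraries alone it was -0.08 (exact permutation p = 0.128), and that against the 6 libraries at 0 h alone was 0.05 (exact permutation p = 0.669).

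PGI1 (YBR196C, chromosome II, 612236 to 613900, minus strand), at the head of the pathway, had 1699 to 2038 CPM at 6 h with a median of 1797, against 1607 to 2645 CPM with a median of 2207 at 0 h. All 6 libraries at 6 h were inside the range at 0 h, in its lower part. The log2 change was -0.28 (SE 0.09, edgeR adjusted p = 0.00809), and -0.30 and not called with the 6 libraries at 0 h (edgeR adjusted p = 0.0784). CDC19 (YAL038W, chromosome I, 71786 to 73288, plus strand), at its end, had 7116 to 11434 CPM at 6 h with a median of 8731, against 7792 to 16355 CPM with a median of 10784 at 0 h. The ranges overlapped, and 2 of 6 libraries at 6 h were below all at 0 h. Its log2 change of -0.33 (SE 0.13, edgeR adjusted p = 0.0304) was -0.35 with the set as a covariate (edgeR adjusted p = 0.000539). The call for CDC19 was lost without replicate 1, 3 or 5 at 6 h, with edgeR adjusted p-values between 0.0698 and 0.111, and with the 6 libraries at 0 h (edgeR adjusted p = 0.106).

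The other 4 genes were not called at 6 h. TPI1 had a log2 change of -0.15 (SE 0.15), FBA1 -0.14 (SE 0.21), PGK1 -0.04 (SE 0.15) and GPM1 -0.03 (SE 0.24), with edgeR adjusted p-values between 0.426 and 0.922. PGK1 had 6782 to 12087 CPM at 6 h with a median of 7228, against 5397 to 13540 CPM at 0 h with a median of 8022. GPM1 had 5186 to 12945 CPM at 6 h with a median of 5764, against 4329 to 16397 CPM at 0 h with a median of 6969. In the steep libraries alone, TPI1 was called with a log2 change of -0.30 (SE 0.12, edgeR adjusted p = 0.0375). The standard errors of FBA1 and GPM1 shrank to 0.10 and 0.10 with the set as a covariate, and the log2 changes were then -0.20 and -0.11 (edgeR adjusted p = 0.0695 and 0.312).

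**Figure D3:**
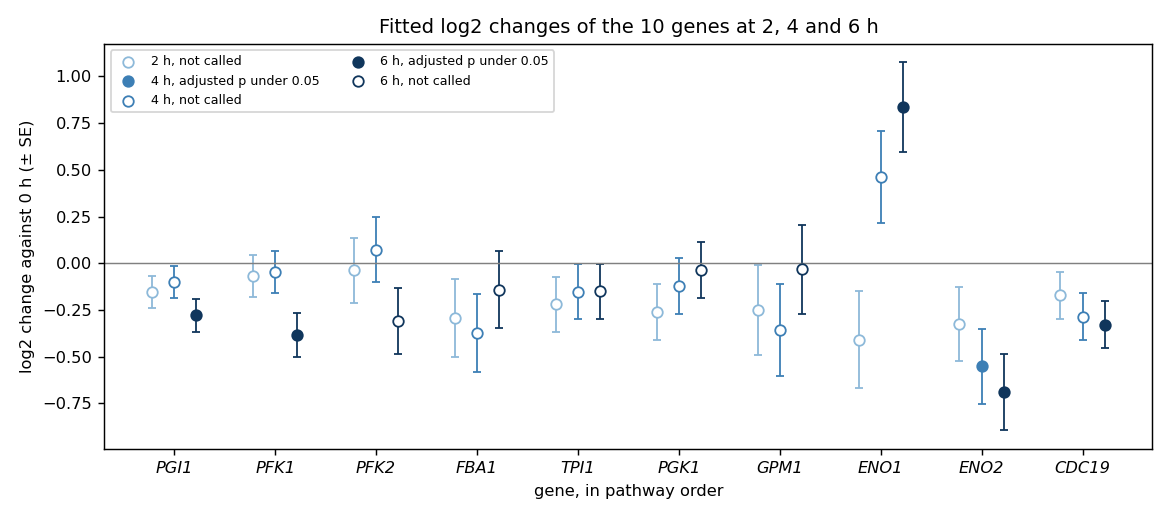
Fitted log2 change of each gene (y axis, ± SE) at 2, 4 and 6 h against 0 h, with the genes in pathway order along the x axis; darker points are later times and filled points were called. ENO1 and ENO2 move to opposite sides at 4 and 6 h (0.84 and -0.69 at 6 h), and all 10 points at 2 h lie below 0 and are open.

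At 4 h, 1 of the 10 genes was called, ENO2, which was lower, where 17.4% of all tested genes were lower and 17.7% higher (10.9% and 21.5% with library totals). ENO2 had 6930.1 to 10345 CPM at 4 h with a median of 8883, against 8245 to 24829 CPM at 0 h. In 1 of 6 libraries it was below all at 0 h. The log2 change was -0.55 (SE 0.20, edgeR adjusted p = 0.0308). All 6 libraries at 4 h had a steep slope, and in the steep libraries alone the change was -0.28 (SE 0.09, edgeR adjusted p = 0.0141). The call at 4 h was lost without replicate 1, 2, 3 or 4 at 4 h (edgeR adjusted p between 0.0501 and 0.0727) and with the 6 libraries at 0 h (edgeR adjusted p = 0.151). It was also lost in the 24 libraries with the submitters' culture number as a block, which pairs the samples of 4 h and 0 h (-0.52, edgeR adjusted p = 0.127, where 10.1% of all genes were called). ENO1 ranged widely at 4 h, with a median of 2881 CPM and a highest value of 4767 CPM in 6 libraries, 2 of them above all at 0 h, and its log2 change of 0.46 was not called (SE 0.24, edgeR adjusted p = 0.133). It was called only without replicate 3 at 4 h (0.62, edgeR adjusted p = 0.0490) and with library totals (0.57, edgeR adjusted p = 0.0484). CDC19 had a log2 change of -0.29 (SE 0.13, edgeR adjusted p = 0.0708). CDC19 was called at 4 h with DESeq2 (-0.29, DESeq2 adjusted p = 0.0480) and without replicate 20 at 0 h (-0.30, edgeR adjusted p = 0.0474).

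At 2 h, 0 of the 10 genes were called, where 0.0835% of all tested genes were; 0 had an unadjusted p under 0.05, and DESeq2 called 0 as well (0.397% of all genes). All 10 fitted log2 changes at 2 h were below 0, between -0.04 for PFK2 and -0.41 for ENO1, with a median of -0.23 beside -0.01 over all tested genes. With library totals in place of TMM, PFK1 and PFK2 were above 0 (0.0038 and 0.031). ENO1 had 1022 to 2586 CPM at 2 h with a median of 1569, inside its range at 0 h.

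Between successive times, edgeR called 0 of the 10 genes from 2 to 4 h (4.74% of all tested genes) and 0 from 4 to 6 h (3.84%), and DESeq2 called 0 in both steps (7.16% and 6.12% of all genes). At an unadjusted p under 0.05 there was 1 in each step. This was ENO1 at 4 h against 2 h, with a log2 change of 0.87 (SE 0.32, edgeR adjusted p = 0.110), and PFK1 at 6 h against 4 h, with -0.34 (SE 0.14, edgeR adjusted p = 0.182). With the length-slope set as a covariate, ENO1 was called at 4 h against 2 h (0.95, edgeR adjusted p = 0.0358, where 14.1% of all genes were called) and ENO2 at 6 h against 4 h (-0.48, edgeR adjusted p = 0.0240, where 7.62% were).

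The rest of the pathway was read from lists of 34 further genes, of which 26 could be tested. At 6 h, 11 of the 26 were higher and 4 were lower than at 0 h, beside 24.9% and 19.6% of all tested genes. HXK1, GLK1, EMI2 and TDH1, which serve steps next to the 10 genes, had larger changes than any of the 10. HXK2, TDH2, TDH3 and PDC1, also at such steps, did not. Of the kinases that phosphorylate glucose, HXK1 (log2 change 4.40, SE 0.24), GLK1 (2.28, SE 0.37) and EMI2 (1.90, SE 0.26) were higher, and HXK2, the main hexokinase on glucose, was lower (-0.73, SE 0.09; edgeR adjusted p at most 2.31e-06 for the 4). HXK1 had 950 to 2790.2 CPM at 6 h with a median of 2417, against 34.9 to 203 CPM at 0 h with a median of 82.8, so that the groups did not overlap. At glyceraldehyde-3-phosphate dehydrogenase, the step between TPI1 and PGK1, TDH1 was higher (4.10, SE 0.29, edgeR adjusted p = 9.65e-15), with 1479 to 3323 CPM at 6 h against 52.3 to 471 CPM at 0 h. TDH2 (-0.38, SE 0.17) and TDH3 (-0.25, SE 0.19), the forms of the growing cell, were not called (edgeR adjusted p = 0.0636 and 0.306), but with the set as a covariate both were (-0.43 and -0.30, edgeR adjusted p = 0.0100 and 0.0169). These paralogs share long identical stretches, so their counts are less certain than those of single-copy genes.

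Of 6 genes for minor isoforms, 2 could be tested. PYK2, a second pyruvate kinase, was higher (log2 change 0.90, SE 0.21, edgeR adjusted p = 0.000473), with 24.8 to 81.9 CPM at 6 h against 13.9 to 42.4 CPM at 0 h. With the 6 libraries at 0 h, PYK2 had 0.53 and was not called (edgeR adjusted p = 0.196). GPM3, a homolog of GPM1, was lower (-0.38, SE 0.08, edgeR adjusted p = 0.000267). Of the 3 genes for the turnover of fructose 2,6-bisphosphate, the activator of phosphofructokinase, PFK26 was higher (0.89, SE 0.12, edgeR adjusted p = 4.84e-08) and PFK27 and FBP26 were not called. Of the 6 fermentation genes tested, ADH3 (0.50) and ADH5 (0.75) were higher and PDC1 (-0.71) and ADH4 (-0.20) were lower, while ADH1, the main alcohol dehydrogenase of fermentation, had a log2 change of -0.09 (SE 0.18, edgeR adjusted p = 0.727). ADH4 was not called with library totals (-0.10, edgeR adjusted p = 0.366), with the 6 libraries at 0 h (-0.12, edgeR adjusted p = 0.392) or without replicate 1, 2 or 5 at 6 h (edgeR adjusted p = 0.0563, 0.0668 and 0.0687). PYC2, a pyruvate carboxylase, was higher (0.79, SE 0.13, edgeR adjusted p = 2.18e-06) and PYC1 was not called (0.29, edgeR adjusted p = 0.101), except with the set as a covariate (0.30, edgeR adjusted p = 0.0496) and without replicate 6 at 6 h (0.38, edgeR adjusted p = 0.0401).

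**Figure D4:**
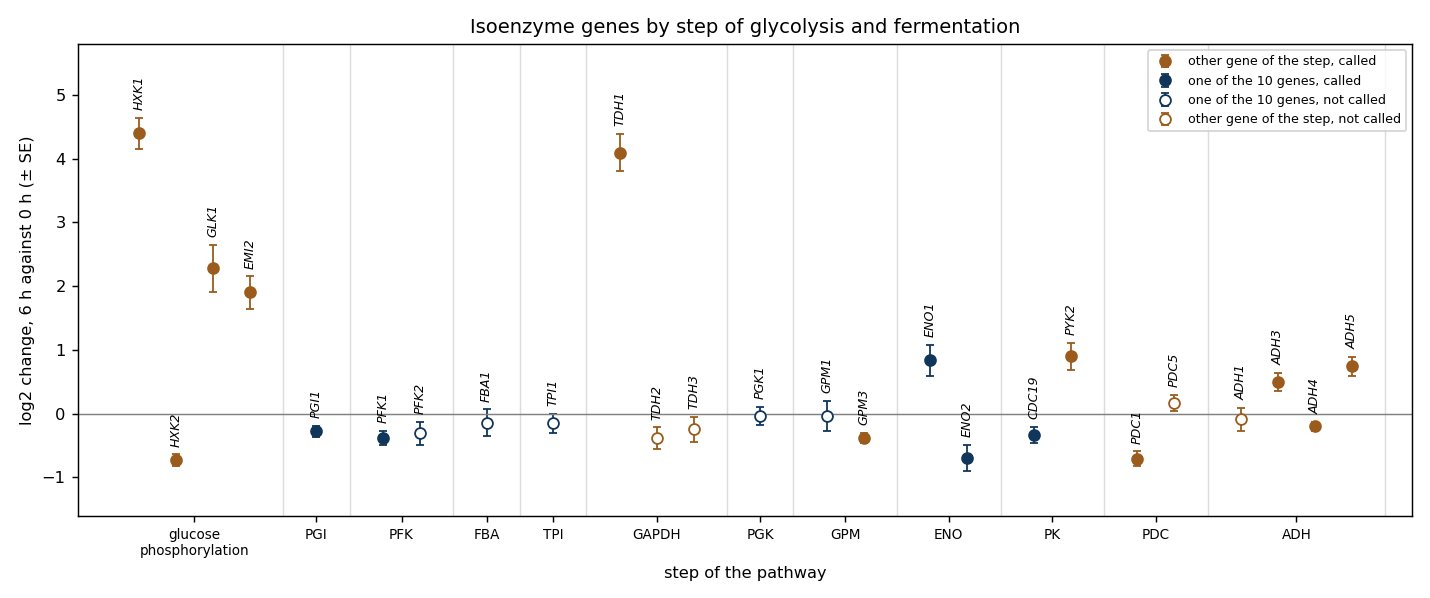
Log2 change at 6 h against 0 h (y axis, ± SE) of the genes that could be tested, grouped along the x axis by the step of glycolysis and fermentation they serve; dark blue points are the 10 genes, brown points other genes of a step, and filled points were called. HXK1 (4.40) and TDH1 (4.10) stand apart from the 10 genes, which lie between -0.69 and 0.84.

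Across the 42 libraries most of the 10 genes varied together. Each gene was taken as log2 CPM centred within the length-slope sets, and Pearson's r over the 45 pairs had a median of 0.68 and ranged between -0.03 for ENO1 with ENO2 and 0.94 for PFK1 with PFK2. When the values were also centred within each time, r ranged between 0.34 and 0.94 with a median of 0.78, and ENO1 with ENO2 had 0.60. With values centred within the sets alone, r of each gene with the others of the 10 was 0.36 for ENO1 and 0.63 to 0.92 for the rest. With times centred too, ENO1 had 0.78. These are descriptions over libraries that share their depth and scaling, and no r over pairs of all tested genes is given beside them. The tested genes most like the mean of the 10 over the same 42 libraries were TDH2 (r = 0.92), ADH1 (0.91), NRE1 (0.87), TDH3 (0.87) and PCM1 (0.85).

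Glycolytic promoters are known for binding sites of Rap1 beside sites of Gcr1, which acts with Gcr2. The 800 bases before each start codon were searched on both strands of the R64 reference for the letters ACCCNNACA (Rap1) and CTTCC (Gcr1). ACCCNNACA was found upstream of 6 of the 10 genes, PFK2, FBA1, PGK1, GPM1, ENO1 and CDC19, and upstream of 8.10% of 5984 genes. CTTCC was found upstream of 10 of 10 and of 82.1% of all genes. Both within 60 bases of each other occurred upstream of 5 of the 10 genes, the same ones without FBA1, and of 1.96% of all genes. A match is a run of letters and not a measured site. A site with other letters is missed by this search, so a promoter without a match may still hold one. The windows printed are 100 bases of the coding strand, shown for the enolase genes, which moved apart, and for PGK1 and CDC19, which hold both motifs close together; capitals mark matches on either strand. They lie on chromosome VII from 1000390 to 1000489 (ENO1), chromosome VIII from 451157 to 451256 (ENO2), chromosome III from 137274 to 137373 (PGK1) and chromosome I from 71134 to 71233 (CDC19), all on the plus strand.
ENO1: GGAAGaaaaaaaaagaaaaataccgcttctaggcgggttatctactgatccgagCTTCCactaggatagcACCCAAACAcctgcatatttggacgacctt
ENO2: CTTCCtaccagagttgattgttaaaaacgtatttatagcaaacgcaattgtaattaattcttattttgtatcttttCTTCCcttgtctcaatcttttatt
PGK1: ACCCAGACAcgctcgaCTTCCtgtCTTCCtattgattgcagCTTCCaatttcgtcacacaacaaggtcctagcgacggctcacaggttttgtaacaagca
CDC19: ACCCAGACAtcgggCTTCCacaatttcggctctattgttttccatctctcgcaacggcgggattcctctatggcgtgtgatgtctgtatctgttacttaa

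The ENO1 and ENO2 windows lie at different distances from the start codon, -537 to -438 for ENO1 and -170 to -71 for ENO2. ACCCNNACA was found before ENO1 and not in the 800 bases before ENO2, nor in those before PGI1, PFK1 and TPI1. ENO2 had CTTCC at 5 places. Of the 5 genes with both motifs close together, ENO1 was higher and CDC19 lower at 6 h, and PFK2, PGK1 and GPM1 were not called. Of the factors' own genes, GCR1 (log2 change -0.19), GCR2 (-0.13), RAP1 (0.17) and TYE7 (-0.27), a further activator of glycolytic genes, were not called at 6 h (edgeR adjusted p between 0.0578 and 0.404). Of the general regulatory factors, ABF1 (1.14, SE 0.11, edgeR adjusted p = 3.80e-11) and REB1 (0.53, SE 0.15, edgeR adjusted p = 0.00403) were higher. GCR2 was called with the set as a covariate (-0.13, edgeR adjusted p = 0.0309), with DESeq2 (-0.15, DESeq2 adjusted p = 0.00972), with a mean of at least 75 counts and without a filter (edgeR adjusted p = 0.0325 and 0.0405). RAP1 was called with the set as a covariate (0.18, edgeR adjusted p = 0.00575), in the steep libraries (0.22, edgeR adjusted p = 0.00537) and with library totals (0.27, edgeR adjusted p = 0.0314). TYE7 was called without replicate 3 at 6 h (-0.40, edgeR adjusted p = 0.0192), and REB1 was not called with the 6 libraries at 0 h (0.29, edgeR adjusted p = 0.324).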

How the data were processed

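Counts per gene were deposited by the authors as featureCounts 2.0.3 output on R64-1-1 with Ensembl release 106, without normalization, 1 table of whole-gene counts and 1 of exon counts for each of the 42 libraries. Counting used the strand, single reads rather than pairs, uniquely mapped reads and no read on more than 1 gene. The methods name a ComBat-seq adjustment, which the deposited counts do not carry. Here genes with at least 75 counts in every library were tested with edgeR 4.0.16 (R 4.3.3; TMM, quasi-likelihood, time as the factor, all 42 libraries, Benjamini-Hochberg over 4789 genes). DESeq2 1.42.0 was an alternative. Replicates were cultures named biological replicates by the labels and were not paired in the tests. By the culture numbers in the submitters' names, 6 of 6 correlations of deviations were above 0.1 for 4 h and 0 h (median 0.25). For 6 h and 0 h 5 of 6 were (median 0.65), and for 2 h and 0 h 4 of 6 (median 0.73). A pairing at those times is thus not excluded. Ratios were compared by exact permutation of the 24 and 6 libraries, without pairing by culture. The closest of 321 library pairs of a group differed by a chi-square of 9.50 per degree of freedom, so no library repeated the counts of another of its group. A second library from the same culture could not be recognised in this way. Whole-gene and exon counts of the 10 genes differed in 7 of 420 pairs, by at most 1 read. The 10 genes, the lists of other pathway genes and the length-slope sets were chosen with earlier results of these data known. Genes outside the 10 were named from those lists or as the 5 with the highest correlation to their mean. The test scripts were tested on simulated data. Upstream windows and coding sequences were read from the RefSeq R64 genome.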

Additional observations from a re-analysis of the deposited data

Results flagged for a closer look

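In groups of 6 libraries, a value was singled out when its gap to the nearest other library was a larger part of the range of its group than Dixon's critical value allows. Of 36 groups checked (the 10 genes and the 2 ratios at 2, 4 and 6 h), 5 had such a value, where chance gives about 1 in 20 groups, and 4 of the 5 came from replicate 1 at 2 h, the only library of that time with a flat length slope. In it, log2 CPM was 14.22 for FBA1 (12.83 to 13.27 in the other 5), 13.70 for GPM1 (12.13 to 12.61 in the other 5) and 14.02 for ENO2 (12.93 to 13.25 in the other 5). The log2 ratio of PFK1 to PFK2 in the same library was 0.38, against -0.15 to -0.05 in the other 5. The fifth was PFK1 in replicate 2 at 6 h, also with a flat slope, at a log2 CPM of 9.81 (10.38 to 10.61 in the other 5). The means of the flat libraries at 0 h lay on the same side for these 4 genes (the log2 means of the flat minus the steep set were 0.85 for FBA1, 1.01 for GPM1, 0.74 for ENO2 and -0.38 for PFK1), with overlapping ranges for ENO2 and PFK1, and what sets the flat libraries apart was not tested.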

How the results depend on the processing

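At 2 h, the share of tested genes called against 0 h was 0.0835%, and it moved to 0.397% with DESeq2, 0.13% with a mean of at least 75 counts, 0.101% without a filter on low counts (7 genes called, against 4), 0.48% with the length-slope set as a covariate, 2.53% in the steep libraries and 0% with the 6 libraries at 0 h. At 4 h it was 35.2% and at 6 h 44.6%, and with the 6 libraries at 0 h these became 5.49% and 26.3%. At 4 h against 2 h it was 4.74%, and 7.16% with DESeq2, 14.1% with the set as a covariate, 15% in the steep libraries and 2.17% with the 6 libraries. At 6 h against 4 h it was 3.84%, and under the same alternatives 6.12%, 7.62%, 6.43% and 1.59%. Leaving out single libraries gave 0.0418% (without replicate 4 at 2 h) to 0.898% (without replicate 1 at 2 h), 22.4% (without replicate 1 at 4 h) to 39.1%, and 37.8% to 48.4% against 0 h, 1.59% to 11.2% at 4 h against 2 h (without replicates 1 and 3 at 4 h) and 1.65% to 7.02% at 6 h against 4 h (without replicates 2 and 6 at 6 h). The causes were not tested. With library totals in place of TMM, the median over all genes lay at a log2 change of 0.06 for 2 h, 0.10 for 4 h and 0.11 for 6 h.

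Directions turned only for log2 changes that were not called. With library totals they became 0.0038 for PFK1 and 0.031 for PFK2 at 2 h; 0.0088 for PGI1, 0.048 for PFK1 and 0.0031 for PGK1 at 4 h; and 0.058 for PGK1, 0.060 for GPM1 and 0.0049 for ADH1 at 6 h. With the set as a covariate they became -0.11 for PFK2, 0.0086 for TPI1, 0.047 for PGK1 and 0.041 for GPM1 at 4 h, and in the steep libraries -0.12 for PFK2, 0.036 for PGK1 and 0.024 for GPM1. With the 6 libraries at 0 h PFK2 had -0.11 at 4 h. The ranges over left-out libraries crossed 0 for PFK2 at 2 h (-0.11 to 0.081), PFK1 at 4 h (-0.088 to 0.023), and PGK1 (-0.18 to 0.015), GPM1 (-0.23 to 0.062) and FBP26 (-0.013 to 0.12) at 6 h. The log2 ratio of ENO2 to ENO1 at 2 h was -0.10 with the 6 libraries and -0.018 to 0.13 without single libraries. That of PFK1 to PFK2 was 0.011 at 2 h with labels permuted within the sets, 0.0017 in the steep libraries and 0.098 with the 6 libraries; at 6 h it was -0.10 and past the threshold with labels permuted within the sets, and 0.052 with the 6 libraries. The fall of the ENO2 to ENO1 ratio at 4 and 6 h stayed past the threshold under every alternative run, between -1.12 and -0.81 at 4 h and between -1.73 and -1.56 at 6 h without single libraries.

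The replicate numbers of the labels do not pair the samples of 6 h with those of 0 h. There the correlations of same-numbered deviations ranged between -0.70 and 0.79, with 2 of 6 above 0.1. For 6 h and 4 h the label numbers follow the submitters' culture numbers, and 4 of 6 were above 0.1 (median 0.22). With the label numbers as a replicate block over 24 libraries, the share of genes called was 0% at 2 h, 5.51% at 4 h and 26.8% at 6 h. It was 2.13% at 4 h against 2 h and 2% at 6 h against 4 h. Under this block ENO1 and PFK1 stayed called at 6 h, ENO2, PGI1 and CDC19 were not (adjusted p = 0.109, 0.107 and 0.320 in edgeR), and the log2 changes of PGK1 (0.056), GPM1 (0.11), FBP26 (-0.066) and ADH1 (0.0033) turned. The culture numbers in the submitters' names had 6 of 6 correlations above 0.1 for 4 h and 0 h (lowest 0.14), 5 of 6 for 6 h and 0 h and 4 of 6 for 2 h and 0 h. As a replicate block they gave 0% at 2 h and 10.1% at 4 h, with PFK2 at -0.073 at 4 h and GPM1 at 0.046 at 6 h. At 6 h under this culture block 1 of the 10 genes was higher and 4 were lower, PFK2 among them, where 33% of all genes were called. CDC19 (edgeR adjusted p = 0.0859) and, among the other genes, PYK2 (0.47, adjusted p = 0.153), ADH4 (-0.11, adjusted p = 0.384) and REB1 (0.29, adjusted p = 0.244) were not called under it, nor were ADH4 (adjusted p = 0.257), REB1 (adjusted p = 0.0866) and ENO2 at 4 h (-0.39, adjusted p = 0.317) with the label numbers. Single libraries also decided calls at 6 h for genes outside the 10 that were not called with all libraries. TDH2 was called without replicate 20 or 22 at 0 h, 1 at 2 h, or 2 or 4 at 6 h, GCR2 without replicate 1, 7, 8, 17 or 19 at 0 h, 1 at 2 h or 1 at 4 h, and RAP1 without replicate 13, 14 or 23 at 0 h, or 2 or 4 at 6 h (lowest edgeR adjusted p = 0.0187 for TDH2, 0.0351 for GCR2 and 0.00714 for RAP1).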

Other observations

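Genes of the wider pathway that were too low for the test showed the following levels. GPM2, a homolog of GPM1, had 20.3 to 43.6 CPM at 6 h with a median of 35.5, against 2.49 to 12.6 CPM at 0 h with a median of 6.66, and FBP1, the gluconeogenic fructose-1,6-bisphosphatase, had 3.50 to 11.1 CPM at 6 h with a median of 4.41, against 0.50 to 3.41 CPM at 0 h with a median of 1.96. All 6 libraries at 6 h were above all 24 at 0 h for both genes. PCK1, phosphoenolpyruvate carboxykinase, had 11.3 to 18.9 CPM at 6 h, against 5.53 to 11.9 CPM at 0 h, with 4 of 6 libraries above all at 0 h. ADH2, which oxidises ethanol, had 1.01 to 11.9 CPM at 6 h, against 2.69 to 14.5 CPM at 0 h, and the ranges overlapped. ERR1, ERR2 and ERR3, enolase-related genes, had at most 0.42 CPM in any library.

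Annotated reading frames that have no entry in RefSeq lie opposite to 3 of the 10 genes. YCR013C overlaps 47.6% of PGK1, YKL153W 62.9% of GPM1 and YAL037C-B 64.1% of CDC19. Their counts had medians of 27, 35 and 26.5 per library and highest values of 250, 350 and 682, against lowest counts of 25893, 21113 and 40787 for the genes they overlap.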
